A study of Mus musculus with 6 samples.

Results

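The genes described here encode the NF-kB family of transcription factors and proteins that control it: the subunits Nfkb1, Nfkb2, Rel, Rela and Relb, the IkB family members Nfkbia, Nfkbiz and Bcl3, the kinase Ikbkb and the feedback inhibitor Tnfaip3. They are 10 of 21938 protein-coding genes of GENCODE M21 on GRCm38, and the question asked of each was where FOXC2 bound around it in podocytes and how that differed after injury. FOXC2 peaks were counted for a member if they reached to within 50 kb of its gene start, in either direction. This gave 62 of 41075 peaks in the PBS list and 43 of 40067 peaks in the ADR list.

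FOXC2 is a forkhead transcription factor of the podocyte, the epithelial cell that wraps the glomerular capillary. FOXC2 ChIP-seq was done on podocytes sorted by FACS from adult male mice on a mixed background that carried the mT/mG reporter and a Cre transgene active in podocytes, which switches the reporter from red to green in those cells. The mice received ADR (adriamycin, doxorubicin, a drug that injures podocytes) at 18 mg/kg on days 0 and 7, or PBS, the vehicle, on the same days, and cells were collected on day 9. Each condition had 3 samples, labelled replicates 1 to 3, which the authors pooled into 1 peak list, so the differences between conditions below have no replicate error and no test. Each value is therefore set beside the same value over all peaks, sites or coding genes, and read depth is unknown.

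As background, NF-kB subunits form dimers that IkB proteins keep in the cytoplasm. The IKK complex, to which the Ikbkb product IKKbeta belongs, phosphorylates IkB and marks it for destruction, the dimers enter the nucleus and bind kappaB sites, and among the genes they switch on are those of their own inhibitors. In podocytes the pathway is known as a route by which cytokine and toxic injury reach gene expression. The peaks below show where FOXC2 was bound and carry no information on how much of any gene was expressed.

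The sequences of 8 bound sites show the results described further on. Each is the GRCm38 plus strand from 100 bp before to 100 bp after the summit, the base of highest signal, and capitals mark letters that match a motif searched near it. None of these windows touches an annotated exon. The intronic Bcl3 site at chr7:19817505-19817705 was the strongest FOXC2 site of any member, is also spanned by the antisense noncoding gene Gm16174, and has as its capitals a WT1-like string, WT1 being a zinc finger factor of podocytes. Its lower-case letters gggatttccc match a second kappaB consensus, described further on, but not the one marked in capitals. The Bcl3 site at chr7:19826830-19827030 was called in PBS alone and holds a KLF-like string and then a kappaB match, both read on the minus strand. The Nfkbia sites at chr12:55446781-55446981 and chr12:55443242-55443442 lie close together, differed between the lists in opposite directions and each hold a kappaB match. The Tnfaip3 site at chr10:19046081-19046281, called in PBS alone, holds a kappaB and an AP-1 match. The Relb promoter site at chr7:19629489-19629689 holds a kappaB match next to overlapping WT1 and KLF strings. The Nfkb1 intronic site at chr3:135681459-135681659 had the largest log2 difference in favour of ADR among the members' shared sites, and the Ikbkb intronic site at chr8:22687930-22688130 was that gene's strongest in both. Both windows hold a forkhead match, 92 bp from the summit at Nfkb1, near the window's edge, and 26 bp from it at Ikbkb.
Bcl3 intron: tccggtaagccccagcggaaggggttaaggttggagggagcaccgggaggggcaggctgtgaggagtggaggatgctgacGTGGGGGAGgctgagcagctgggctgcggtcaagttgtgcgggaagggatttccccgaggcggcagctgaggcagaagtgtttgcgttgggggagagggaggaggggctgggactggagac
Bcl3 upstream: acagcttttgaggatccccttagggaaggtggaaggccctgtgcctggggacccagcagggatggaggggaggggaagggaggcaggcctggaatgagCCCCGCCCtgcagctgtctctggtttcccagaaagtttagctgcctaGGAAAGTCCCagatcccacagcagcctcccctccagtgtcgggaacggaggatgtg
Nfkbia downstream, nearer site: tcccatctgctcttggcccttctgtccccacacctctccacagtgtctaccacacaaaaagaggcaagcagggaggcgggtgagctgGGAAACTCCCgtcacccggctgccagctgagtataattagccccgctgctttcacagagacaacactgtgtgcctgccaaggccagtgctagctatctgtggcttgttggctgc
Nfkbia downstream, farther site: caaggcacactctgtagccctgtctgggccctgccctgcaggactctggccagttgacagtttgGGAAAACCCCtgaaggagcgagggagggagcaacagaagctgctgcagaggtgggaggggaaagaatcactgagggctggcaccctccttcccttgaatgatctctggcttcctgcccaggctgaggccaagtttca
Tnfaip3 upstream: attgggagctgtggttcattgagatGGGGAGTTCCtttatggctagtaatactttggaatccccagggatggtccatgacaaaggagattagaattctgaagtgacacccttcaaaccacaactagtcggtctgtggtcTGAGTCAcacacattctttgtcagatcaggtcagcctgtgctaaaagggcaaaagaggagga
Relb promoter: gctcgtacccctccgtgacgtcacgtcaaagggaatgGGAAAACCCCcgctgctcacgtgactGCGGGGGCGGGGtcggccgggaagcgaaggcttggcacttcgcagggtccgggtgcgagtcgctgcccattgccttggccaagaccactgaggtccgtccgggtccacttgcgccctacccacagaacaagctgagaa
Nfkb1 intron: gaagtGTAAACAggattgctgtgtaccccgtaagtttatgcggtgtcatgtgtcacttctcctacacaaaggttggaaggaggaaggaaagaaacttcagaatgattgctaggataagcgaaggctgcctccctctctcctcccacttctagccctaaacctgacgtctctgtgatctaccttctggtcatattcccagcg
Ikbkb intron: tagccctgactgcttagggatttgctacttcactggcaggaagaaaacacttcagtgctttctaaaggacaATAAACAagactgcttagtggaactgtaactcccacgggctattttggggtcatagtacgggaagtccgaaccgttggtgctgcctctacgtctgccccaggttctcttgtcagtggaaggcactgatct

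FOXC2 peaks at these genes were fewer in the ADR list, with the largest difference, 8 peaks, at Bcl3. Fewer ADR than PBS peaks were found at 6 members, more at 2 and equally many at 2. Over the 16880 coding genes with any peak in reach 44.1% had fewer and 27.2% had more. This background was not matched for peak number. Of the 871 coding genes with at least 13 PBS peaks, the number at Bcl3 and Nfkbia, 78.6% had fewer. Bcl3 had 13 PBS and 5 ADR peaks, followed by Nfkbia (13 to 9), Rela (8 to 4) and Tnfaip3 (5 to 2). Nfkb2 (8 to 7) and Nfkbiz (3 to 2) had 1 peak fewer, Rel (1 and 1) and Relb (4 and 4) kept their number, and Nfkb1 (4 to 5) and Ikbkb (3 to 4) had 1 more. Without Bcl3 the totals were 49 and 38. All 10 members had a PBS peak within 1 kb of the gene start and 9 had an ADR peak there, the exception being Bcl3, whereas 50.6% of all coding genes had one in either list.

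**Figure D1:**
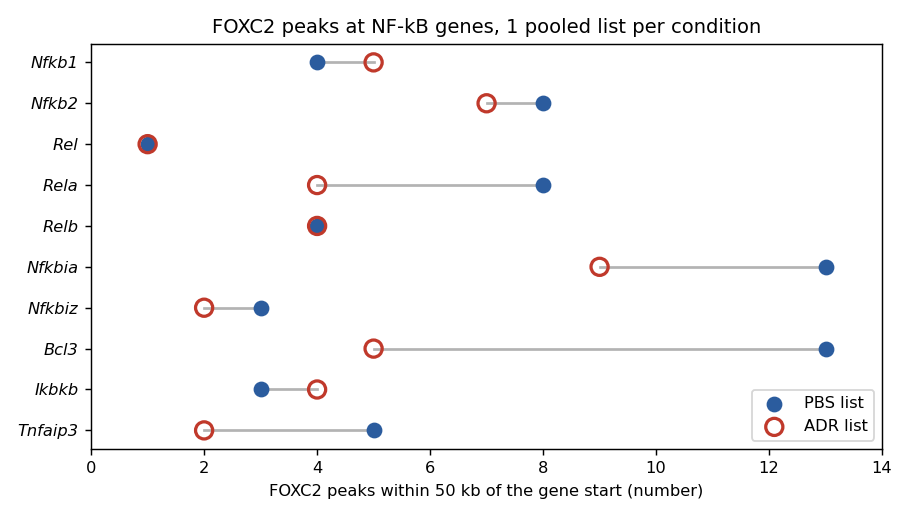
Number of FOXC2 peaks within 50 kb of each gene start (x axis) for the 10 genes (y axis), with filled points for the PBS list and open circles for the ADR list. Bcl3 has the longest line, from 13 to 5, and the open circle lies to the right of the filled point only for Nfkb1 and Ikbkb.

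When peaks of both lists that shared at least 1 bp were merged, the members had 63 sites: 39 called in both lists, 21 in PBS alone and 3 in ADR alone. Of the members' PBS peaks, 21 of 62 overlapped no ADR peak, or 33.9% (95% Wilson interval 23.3 to 46.3), close to 33.1% over all PBS peaks. Of their ADR peaks, 3 of 43 overlapped no PBS peak, or 6.98% (2.40 to 18.6), against 32.3% over all ADR peaks. These backgrounds were not matched for place. By the definition given below, promoters held 36.5% of member sites and 23.5% of all sites, and introns 15.9% and 42.3%. The intervals treat peaks as independent and cover counting error alone. The members were chosen with earlier results of these data known, so here and below the intervals are no test against the background. The share of PBS peaks without an ADR counterpart thus lay near that of the whole list, and the interval of the ADR share lay below its background. The latter depended on the overlap required: when 50% of both peaks had to overlap, 12 of 43 ADR peaks had no PBS counterpart, or 27.9% (16.7 to 42.7), against 41.4% of all ADR peaks. The median fold enrichment, the peak caller's ratio of peak signal to background, was 8.43 at the members' PBS peaks (6.53 over all PBS peaks) and 8.29 at their ADR peaks (7.42 over all ADR peaks). Together the members' peaks covered 29.3 kb in PBS and 21.6 kb in ADR.

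Positions below are distances of a site's summit from the gene start in kb, negative upstream, and folds are given as PBS then ADR. A site was placed in a promoter when its summit lay between 1 kb upstream and 100 bp downstream of any annotated transcript start of a coding gene, so an internal start counts too. Among the 63 sites 47 had the member's own start as the nearest coding gene start. For the other 16 the neighbour is named, since distance alone assigned them.

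**Figure D2:**
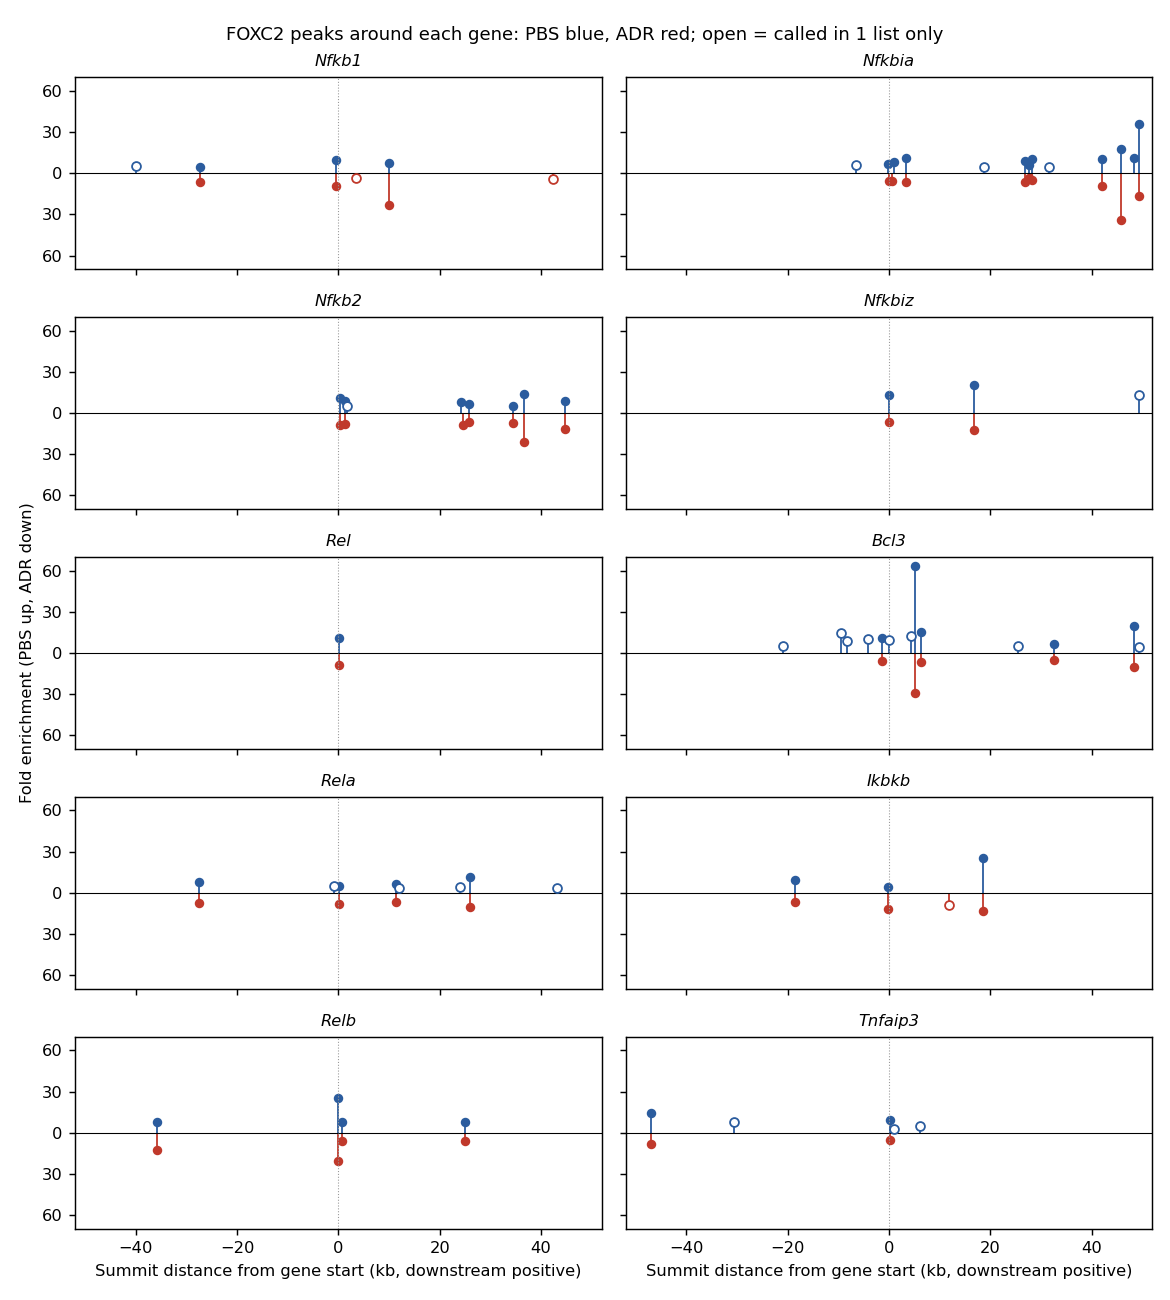
FOXC2 peaks around each gene start, with the summit's distance from the start in kb on the x axis and fold enrichment on the y axis, PBS peaks drawn upward in blue and ADR peaks downward in red, and open points for peaks that overlap none of the other list. Most open points are blue and many lie at Bcl3, the red open points are at Nfkb1 and Ikbkb, and the tallest line is the PBS peak in the Bcl3 intron.

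Nfkb1 encodes the precursor of the p50 subunit and lies at chr3:135584655-135691547 on the minus strand (ENSMUSG00000028163.17). The site at 9.988 kb, in an intron, had a fold of 7.48 in PBS and 22.9 in ADR, a log2 difference of 1.61, and was the gene's strongest in ADR. Of all 26703 sites called in both lists, 4.49% were higher in ADR by as much. Its promoter site at -0.462 kb differed little, with 9.88 and 9.24. A weak site at -27.436 kb went from 4.72 to 6.39. Nfkb1 also held 2 of the 3 ADR-only sites of the members, both intronic, at 3.514 kb (fold 3.55) and 42.349 kb (fold 4.46), and 1 PBS-only site at -39.897 kb (fold 4.98). Each of these 3 was weaker than the median peak of its list.

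Nfkb2 encodes the precursor of p52, the subunit of the noncanonical pathway, and lies at chr19:46304320-46312385 on the plus strand (ENSMUSG00000025225.15). The sites nearest its start lay at 0.349 kb (10.9 and 8.71) and 1.3 kb (8.59 and 8.29), and a PBS-only site with an AP-1 match lay at 1.704 kb (fold 4.98). Thus the peaks at the start itself were slightly lower in ADR. All 5 sites farther away were higher in ADR and nearer to the starts of other genes: Fbxl15 at 24.493 kb (8.07 and 8.84) and 25.814 kb (6.53 and 6.65), Cuedc2 at 34.445 kb (5.33 and 7.06), Mfsd13a at 36.685 kb (13.8 and 20.7) and 2310034G01Rik at 44.683 kb (9.12 and 12.0). The strongest site in the Nfkb2 window in both lists was thus 116 bp from the Mfsd13a start.

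Rel encodes c-Rel, the subunit best known from lymphocytes, and lies at chr11:23736847-23770970 on the minus strand (ENSMUSG00000020275.9). Its window held 1 site, at 0.129 kb in an exon, with folds of 11.2 and 8.56 and an AP-1 match.

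Rela encodes p65, the main activating subunit, and lies at chr19:5637483-5648130 on the plus strand (ENSMUSG00000024927.8). The site at its start, at 0.053 kb, had folds of 4.89 and 8.45, a log2 difference of 0.79. Beside it a PBS-only promoter site at -0.812 kb (fold 5.23) was not called in ADR. Past the gene, a site at 11.387 kb had 6.78 and 6.37, and a PBS-only site at 11.99 kb had a fold of 3.18. The strongest site, at 25.951 kb (11.2 and 10.02), was nearest to Sipa1, as was a PBS-only site at 24.018 kb (fold 4.42). The site at -27.496 kb (8.24 and 7.20) lay at the Kat5 promoter, and a PBS-only site at 43.148 kb (fold 3.57) was nearest to Map3k11. The 4 Rela sites missing from the ADR list had folds of at most 5.23, below the PBS median.

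Relb encodes the partner of p52 and lies at chr7:19606217-19629438 on the minus strand (ENSMUSG00000002983.17). Its promoter site at -0.151 kb was the strongest start site of any member, with folds of 25.4 and 20.3. Each list had a second, smaller peak inside this site, with folds of 8.07 and 6.08. The remaining sites lay at other promoters, Clptm1 at -35.748 kb (7.86 and 12.8) and Clasrp at 25.013 kb (7.48 and 6.24). Every peak around Relb was thus found in both lists.

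Nfkbia encodes IkBalpha, the inhibitor that NF-kB itself induces, and lies at chr12:55489410-55492647 on the minus strand (ENSMUSG00000021025.8). It had 12 sites, all nearest to its own start. Around the small gene the folds were modest and lower in ADR, at -0.153 kb (6.49 and 5.42), 0.949 kb (8.29 and 5.87) and 3.397 kb (11.4 and 6.37). The same held for sites at 26.84 kb (8.85 and 6.24), 27.646 kb (5.83 and 3.77) and 28.303 kb (10.2 and 5.28), while the folds at 42.078 kb were close (10.2 and 9.61). The strongest sites were far downstream and differed in opposite directions: 45.766 kb had 17.6 and 34.0 (log2 difference 0.95) and 49.305 kb had 35.6 and 16.7 (log2 difference -1.09). At the latter the PBS list had 2 peaks, of folds 35.6 and 10.9, where the ADR list had 1 peak 1390 bp wide. The nearer of the pair was the only one of the 9 Nfkbia sites called in both lists that was higher in ADR. PBS-only sites lay at -6.559 kb (fold 5.94), 18.695 kb (4.75) and 31.505 kb (4.20).

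Nfkbiz encodes IkBzeta, a nuclear IkB protein that modifies which targets NF-kB activates, and lies at chr16:55811375-55838899 on the minus strand (ENSMUSG00000035356.17). The site at its start, at 0.049 kb, had folds of 13.1 and 6.36, a log2 difference of -1.04. The stronger site at 16.739 kb, at an internal transcript start, had 20.5 and 12.1. A PBS peak with a fold of 13.5 at 49.341 kb had no ADR counterpart and was, after 1 at Bcl3, the strongest PBS-only site of the members. All 3 Nfkbiz sites were therefore lower in ADR or not called there.

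Bcl3 encodes an IkB protein that acts in the nucleus with p50 and p52 dimers, and lies at chr7:19808462-19822770 on the minus strand (ENSMUSG00000053175.17). The intronic site at 5.165 kb had a fold of 63.6 in PBS, rank 41 of all PBS peaks, and 29.0 in ADR, rank 1778. Its log2 difference was -1.14, and 4.77% of all sites called in both lists were lower in ADR by as much. The PBS list reached a fold of 80.6 and the ADR list only 49.1, so that any site with a PBS fold of at least 50 had to be lower in ADR. Of the 183 such sites called in both lists, 21.3% were lower by as much as this site. Of the 3037 with a PBS fold of at least 20, 73.3% were lower in ADR and 14.7% by as much.

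The other Bcl3 sites called in both lists were lower in ADR as well. The site at 6.351 kb, at an internal start, had 15.4 and 6.24. Its log2 difference of -1.31 was the most negative among the members' sites called in both lists. The rest lay at -1.432 kb (10.8 and 5.87), 48.331 kb near Bcam (19.9 and 10.5) and 32.541 kb near Cblc (6.78 and 5.18). Called in PBS alone were sites at -9.396 kb (fold 14.3), 4.23 kb (12.2), -4.16 kb (9.88), -0.04 kb at the gene start (9.11) and -8.311 kb (8.58), all above the PBS median of 6.53. Weaker PBS-only sites lay at 25.386 kb near Cblc (5.23), -20.978 kb near Gm19345 (4.72) and 49.262 kb near Bcam (4.20). No site in the Bcl3 window was higher in ADR or called in ADR alone. At least 8 fewer ADR peaks were found at 0.563% of coding genes with a peak. The share was higher among genes rich in PBS peaks: of the 871 with at least 13 PBS peaks, 78.6% had fewer ADR peaks and 8.84% had at least 8 fewer. The peaks covered 5.17 kb of the window in PBS and 2.11 kb in ADR.

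Ikbkb encodes IKKbeta, the kinase that marks IkBalpha for destruction, and lies at chr8:22659212-22706589 on the minus strand (ENSMUSG00000031537.15). Its promoter site at -0.227 kb had folds of 3.93 and 11.8, a log2 difference of 1.59, next in size to the Nfkb1 intron. An ADR-only site at 11.84 kb, at an internal start, had a fold of 9.17 and was the strongest of the 3 ADR-only sites. The intronic site at 18.559 kb had 25.1 and 13.1, and the upstream site at -18.671 kb had 9.11 and 6.72. The start was thus higher in ADR, while the gene's strongest site was lower.

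Tnfaip3 encodes A20, a ubiquitin-editing enzyme that shuts the pathway off, and lies at chr10:19000910-19015657 on the minus strand (ENSMUSG00000019850.11). The site at 0.267 kb had folds of 9.25 and 5.38 and the far upstream site at -46.962 kb had 14.3 and 8.56. The remaining 3 sites, at -30.524 kb (fold 7.56), 0.976 kb (2.79) and 6.141 kb (4.55), were called in PBS alone. As at Nfkbiz and Bcl3, no site was higher in ADR.

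Across the members, the ADR fold was the lower at 28 of the 39 sites called in both lists, or 71.8% (95% Wilson interval 56.2 to 83.5), against 47.4% of all such sites. The median log2 difference, ADR minus PBS, was -0.32 at the members and 0.05 over all such sites. Without Bcl3 it was lower at 23 of 34 sites with a median of -0.23. Members differed in this: Bcl3, Tnfaip3, Nfkbiz and Rel had no site higher in ADR, Nfkbia had 1, and the 5 largest positive log2 differences were at Nfkb1 (1.61), Ikbkb (1.59), Nfkbia (0.95), Rela (0.79) and the Clptm1 promoter in the Relb window (0.71). The 5 largest negative ones were at Bcl3 (-1.31 and -1.14), Nfkbia (-1.09 and -0.95) and Nfkbiz (-1.04). By place, intergenic sites had a median of -0.63 (13 sites) and promoter sites -0.23 (16 sites), against 0.08 and -0.05 over all sites of those kinds. The 5 intronic sites had a median of -0.39 against 0.18, and the 5 exonic sites, of which 2 were lower in ADR, had 0.03 against 0.06.

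**Figure D3:**
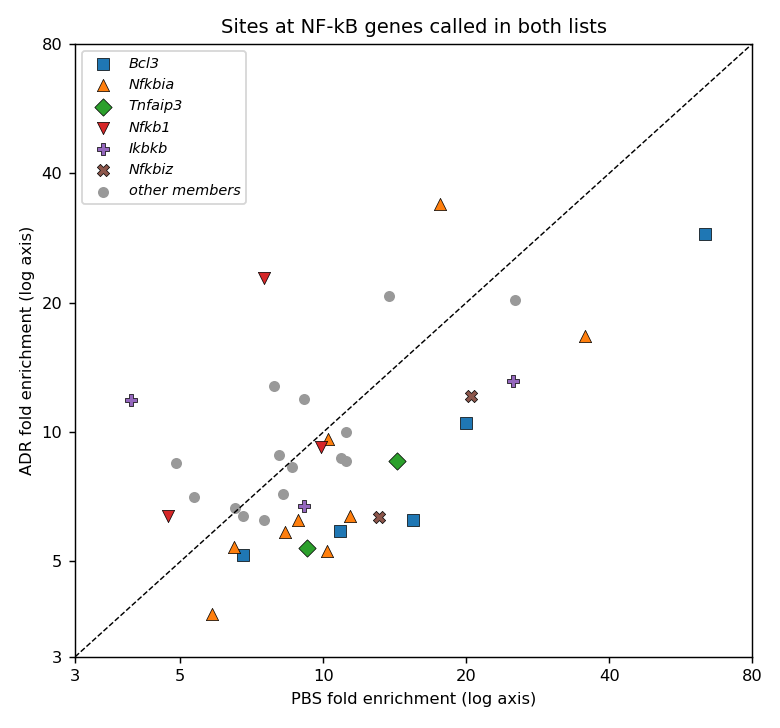
Fold enrichment in PBS (x axis) and ADR (y axis), both on log axes, of the 39 member sites called in both lists, with a dashed line where they are equal. The sites of Bcl3, Tnfaip3 and Nfkbiz all lie below the line, and the points farthest above it are from Nfkb1 and Ikbkb.

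The sequence within 100 bp of each of the 63 summits was searched on both strands for motifs of 7 factors. A kappaB match, here GGG and TTCC held 3 bases apart, was found at 11 sites, or 17.5% (95% Wilson interval 10.04 to 28.6), against 4.38% of all 53255 sites. They lay in the windows of 6 genes, Nfkb2 and Tnfaip3 with 3 each, Nfkbia with 2, and Bcl3, Relb and Nfkbiz with 1 each. Of these, the Nfkb2 site at 25.814 kb was nearest to Fbxl15, and the Nfkbia sites lay at 45.766 and 49.305 kb. The Nfkbiz start site held GGAAATTCCC and the Nfkb2 start sites GGAATTCCCC, GGGGCTTTCC and GGGACTTTCC, while the Tnfaip3 start site held both GGGCAGTTCC and GGGGATTTCC, written on the plus strand. The member sites were richer in G and C, with a median of 57.7% against 53.7%. Over all sites within the middle range of the members, from 51.2 to 63.7%, the share was 5.32%. In promoters 6 of 23 member sites held a match (26.1%, against 4.65% of all promoter sites) and outside them 5 of 40 (12.5%, against 4.30%). Among PBS-only sites, 3 of 21 held one, against 5.31% of all PBS-only sites. A second kappaB consensus, with R (A or G) and Y (C or T) at set positions, matched 16 of 63 sites, or 25.4%, against 6.87% of all sites. It added sites at Bcl3, Ikbkb, Nfkb2 and Rela, among them the Bcl3 start and the strongest Bcl3 intronic site. It dropped the Nfkb2 site at 25.814 kb, so which sites and genes held a match depended on the definition. A match is a description of the letters and does not show that NF-kB was bound.

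The forkhead strings GTAAACA and ATAAACA, the core that factors like FOXC2 recognise, were at 5 sites (7.94%, 3.44 to 17.3), against 8.72% of all sites. They were at Nfkb1 at 9.988 and -27.436 kb, Ikbkb at 18.559 kb, Nfkbia at 31.505 kb and Tnfaip3 at -46.962 kb, where the match lay 3 bp from the summit. The others lay 92, 87, 26 and 22 bp from theirs, in the order named. With all strings of RYAAAYA, 9 of the 63 sites matched (14.3%, against 23.9% of all sites). AP-1, searched as TGACTCA, matched 6 sites (9.52%, against 7.57%), 3 of them at Bcl3. Of these, 4 were among the 21 PBS-only sites, while 17.2% of all PBS-only sites held it. WT1 strings (GNGGGGGAG, GNGGGGGCG, GNGTGGGAG and GNGTGGGCG) were at 14 sites, or 22.2% against 26.7%, and KLF strings (GGGCGTGG, GGGTGTGG, GGGCGGGG and GGGTGGGG), which can overlap them, at 17 sites, or 27.0% (17.6 to 39.0) against 17.2%. TEAD strings (ACATTCCA, ACATTCCT, GCATTCCA and GCATTCCT) were at 2 sites against 8.58% of all sites. The LMX1B string TTAATTA was at 1, the ADR-only site of Ikbkb, against 2.95%. Of these motifs, kappaB and KLF had an interval that lay above the share over all sites. KLF strings consist mostly of G and C, in which the member sites were richer. No KLF share matched for this or split by promoter is given, and whether base composition accounts for the difference was not tested.

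**Figure D4:**
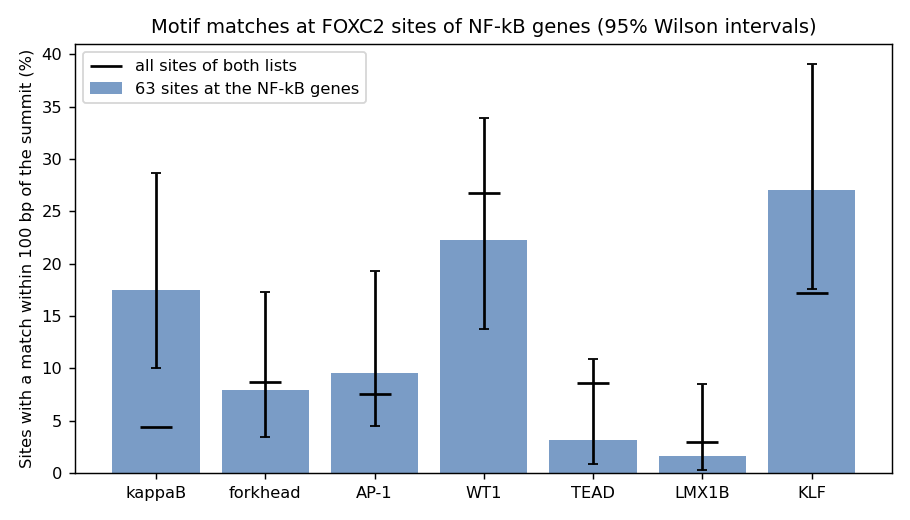
Share of the 63 member sites (bars, percent, with 95% Wilson intervals) that hold a match to each motif within 100 bp of the summit, with the share of all sites of both lists as a black dash. The kappaB bar, 17.5%, stands above its dash at 4.38%, while the forkhead and AP-1 intervals include theirs.

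The members were set beside other genes of the pathway and beside genes that NF-kB is known to induce. A list of 36 other pathway genes had 193 peaks in PBS and 166 in ADR. The number was lower in ADR at 14 of them, higher at 7 and equal at 15. Over all coding genes with a peak 44.1% had fewer and 27.2% had more, so neither count stood above its background. The median difference was 0, the same as over all coding genes with a peak. The largest decreases in number were at Nfkbil1, an IkB-like gene (13 to 6), Tradd and Tnfrsf1a, the adaptor and receptor of TNF (12 to 7 and 11 to 7), and Nfkbie, which encodes IkBepsilon (14 to 10). The largest increases were at Bcl10, an adaptor of antigen receptor signalling (4 to 7), Chuk, which encodes IKKalpha (3 to 5), and Btrc, which encodes the ubiquitin ligase subunit that recognises phosphorylated IkB (3 to 5), with Tbk1, Nfkbib, Traf6 and Tnip2 next at 1 more each.

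Of 22 NF-kB target genes, 19 had a peak, and of these 17 had fewer ADR peaks, 2 as many and 0 more, against 44.1% with fewer and 27.2% with more over all coding genes with a peak. Their peaks numbered 134 in PBS and 77 in ADR. Genes with many PBS peaks weigh in this: all 5 with at least 13 PBS peaks had fewer in ADR, against 78.6% of all such coding genes, and so did 12 of the other 14. Of the 5, Gadd45b, a stress-induced gene, went from 21 to 10 peaks, Icam1, an adhesion molecule, from 16 to 8, Bcl2l1, which encodes the survival protein Bcl-xL, from 18 to 10 and Lcn2, an injury marker of the kidney, from 14 to 7. Vcam1, Il1b and Bcl2a1b had no peak in either list. Neighbours such as Cxcl1 and Cxcl2 shared their peaks, so the genes are not independent counts. This list too was chosen with earlier results of these data known.

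The window itself set which peaks were counted. Just inside its edge were PBS peaks at Nfkbiz at 49.341 kb (fold 13.5) and Bcl3 at 49.262 kb (4.20), and the farther Nfkbia site. Just outside the Bcl3 window lay a PBS peak at 50.975 kb (11.2), an ADR peak at 52.159 kb (15.2) and sites with close folds in both lists, at 51.504 kb in PBS (16.3) and 51.486 kb in ADR (15.8), 53.626 kb in PBS (26.5) and 53.637 kb in ADR (25.5), and 54.4 kb in PBS (9.88) and 54.352 kb in ADR (11.03). Beyond the Nfkb2 edge a site was higher in ADR, at 53.704 kb in PBS (15.3) and 53.709 kb in ADR (31.1). Other peaks just outside were an Nfkbia site at 52.298 kb in PBS (6.27) and 52.281 kb in ADR (7.96), and an Ikbkb site at -51.919 kb in PBS (43.1) and -51.9 kb in ADR (31.4), which was stronger than any Ikbkb site counted.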

How the data were processed

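Binding of FOXC2 was measured by ChIP-seq in sorted podocytes of 3 PBS and 3 ADR samples. Per the study's methods, single-end reads were trimmed, aligned to GRCm38 and passed through nf-core/chipseq, and the samples of a condition were pooled. The peak caller's version, its threshold and the control behind the folds are not given in the sources used here. The authors deposited 2 lists of narrow peaks, in which every peak is named after replicate 1. Used were the authors' fold enrichment (a ratio of peak signal to background), the deposited −log10 of q and the deposited summit offset in bp. The score and the p column were not used. Depth is unknown, so intervals cover counting error only.

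Genes came from GENCODE M21 and sequence from GRCm38, within whose chromosomes all peaks lie. Peaks of the 2 lists sharing at least 1 bp were merged, and a site took the highest fold of each list. Motifs were searched within 100 bp of the summit of the higher peak. Python 3.11.15, NumPy 2.4.6, pandas 2.3.3, SciPy 1.17.1 and matplotlib 3.10.9 were used, and the counting was tested on simulated peaks. With 1 list per condition no test was made, and shares have 95% Wilson intervals. Members and gene lists were chosen with earlier results of these data known. Named were, for each member, the site nearest the start and the strongest, the 5 strongest sites of each list alone, the 5 largest differences in each direction, and the 4 largest changes of the pathway list. The remaining member sites and the examples from the target list were named after their values were seen. Of the podocyte markers listed, 1 is not reported here. Alternatives were other windows, gene starts, peak strengths, overlaps and motif definitions.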

Additional observations from a re-analysis of the deposited data

How the results depend on the processing

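Of 90 alternative values 72 kept to the main value within the limits set and 18 moved. Shares had to stay inside the main Wilson interval, counts within a fixed ratio of the main count and medians inside their own interval. A change of direction was defined only for the median log2 difference, not for counts or shares. The median log2 difference at sites called in both lists stayed negative in each alternative, from -0.16 with the 20000 peaks of smallest q in each list to -0.37 with folds centered on all sites. Within 10 kb of the gene start the members had 27 PBS and 18 ADR peaks, and within 5 kb they had 21 and 16. In both windows 1 member had more ADR peaks, while 5 and 4 members had fewer. Of the other pathway genes 1 and 0 had more, and 14 and 13 had fewer. Shares over all coding genes are not given for the gene counts of this paragraph, so these counts cannot show a difference particular to these genes. With those 20000 peaks there were 41 PBS and 23 ADR peaks, and the PBS share without an ADR overlap was 48.8% (35.6% of all PBS peaks). At this setting 1 member had more ADR peaks and 5 had fewer. At a −log10 q minimum of 5, 1 member had more ADR peaks, and with a fold of at least 5 the share of PBS peaks without an ADR overlap was 22.9% (31.9% of all). When 50% of both peaks had to overlap, the shares found in 1 list alone were 50.0% for PBS and 27.9% for ADR (42.8% and 41.4% of all peaks). Within 50 bp of the summit kappaB matched 7.94% and AP-1 3.17% of member sites, against 2.28% and 4.02% of all sites. The values without Bcl3 and the kappaB share outside promoters were chosen after seeing the data. No paired analysis was possible because the samples of a condition share 1 list, and for the same reason leaving out a replicate was not run. Depth is unknown, so a peak missing from a list may have fallen below the caller's threshold, and the smallest folds in the lists were 1.54 in PBS and 2.30 in ADR.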

Other observations

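As a check of the sorted cells, peaks were counted at marker genes of the cell types a kidney sort could hold. The 5 podocyte markers counted had 51 PBS and 59 ADR peaks, more in ADR at 4 and fewer at 1 (27.2% and 44.1% of all coding genes with a peak). Ptpro, a podocyte phosphatase, had the largest increase, from 8 to 13, and Nphs1, which encodes nephrin, was the 1 with fewer, from 10 to 9. The 3 proximal tubule markers had 11 and 20, more in ADR at 2 and fewer at 1. Slc34a1, a phosphate transporter, went from 4 to 13, Lrp2 from 2 to 3 and Slc5a2 from 5 to 4. The 3 mesangial markers had 16 and 16, more in ADR at 1 and fewer at 2. The 5 endothelial markers had 9 and 8, more at 1 and fewer at 1, with Cdh5, Tek and Emcn without a peak. The 4 immune markers had 16 and 17, more at 1 and fewer at 1, with Ptprc and Itgam without a peak. FOXC2 peaks at a marker show binding and not expression, and whether other cells had a part in the results above was not tested.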
